A study of Mus musculus with 9 samples.

Results

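CircRNAs whose parental genes encode RNA-binding proteins and splicing factors were examined across neurogenesis in the mouse cortex. Of 59 listed genes of this kind, 34 had at least 1 circRNA in the count table, giving 77 circRNAs of the 5281 counted. The parental gene was the name given in the study's list of circRNAs for 33 of the 77, and for the other 44 it was the annotated gene that contains the circRNA on the same strand. The remaining 25 genes had no circRNA in the table: Mbnl1, Mbnl2, Rbfox2, Rbfox3, Nova1, Celf1, Celf4, Celf5, Ptbp3, Fmr1, Rbm5, Rbm6, Rbm25, Srrm2, Srpk1, Sf3b1, Prpf8, Dicer1, Ago2, Cpeb2, Cpeb3, Cpeb4, Larp4, Ythdc1 and Ythdc2. Ago2 is named Eif2c2 in the annotation used, and no circRNA of either symbol was found. The libraries came from lateral cortex of C57BL/6 embryos at E14.5 from the double reporter line Btg2-RFP and Tubb3-GFP, for which the study's methods give the pregnant females as heterozygous at both alleles. All 3 groups were sorted from this line, and the genotype of single embryos is not given in the sources used here. The reporters separate proliferative progenitors (PP, no RFP and no GFP), differentiative progenitors (DP, RFP without GFP) and newborn neurons (N, GFP). Each group holds 3 libraries of sorted cells, described as biological replicates. Total RNA was treated with RNase R, an exonuclease that degrades linear RNA, before strand-specific sequencing. The PP are defined by the absence of both reporters, so that any other unlabelled cell of the tissue would fall in the same gate.

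A circRNA forms when the splicing machinery joins the end of an exon back to the start of the same or an earlier exon, and the product lacks free ends. RNA-binding proteins choose which exons of a pre-mRNA are spliced, carry mRNAs through the cell, and set their translation and decay, and some of them can bring about or hinder back-splicing. In the cortex, neuronal ELAV proteins, Nova2, Rbfox1, Srrm4 and Celf2 act in neurons or their precursors, while Ptbp1 and Qk are known from neural progenitors and glia, where Ptbp1 represses neuronal exons.

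The backsplice junctions of the members that changed most are shown here, since each junction is what distinguishes a circRNA from the mRNA of its gene. Each line gives 20 bases before the junction in lower case and the 20 bases that follow it in capitals, 5′ to 3′ on the transcribed strand, read from the mm9 genome at the listed ends. The neuronal ELAV genes encode proteins that bind U-rich and AU-rich elements, stabilise mRNAs and regulate splicing in neurons. The single Elavl4 circRNA, at chr4:109884031-109924126 on the minus strand, joins the end of exon 5 to the start of exon 2. The 3 circRNAs of Elavl3 end at exons 3, 5 and 6 of the gene and share the start of exon 2, as their identical capitals show.
Elavl4 CiCo_mm9_circ_004254: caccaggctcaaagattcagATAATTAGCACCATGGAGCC
Elavl3 CiCo_mm9_circ_006539: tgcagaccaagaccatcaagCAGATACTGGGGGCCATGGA
Elavl3 CiCo_mm9_circ_006537: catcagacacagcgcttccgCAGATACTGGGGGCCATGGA
Elavl3 CiCo_mm9_circ_006536: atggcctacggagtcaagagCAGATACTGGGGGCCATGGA
Elavl2 CiCo_mm9_circ_004713: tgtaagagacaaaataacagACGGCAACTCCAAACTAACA
Elavl2 CiCo_mm9_circ_004711: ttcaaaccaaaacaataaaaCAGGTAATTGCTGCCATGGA

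Splicing regulators and Tnrc6c follow, as the members outside the ELAV family that passed the test. Nova2 lies at chr7:19527565-19535968 on the plus strand (exons 3 to 4), Rbfox1 at chr16:7353025-7376062 on the plus strand (exons 10 to 12) and Srrm4 at chr5:116917441-116917869 on the minus strand (exons 7 to 8). CiCo_mm9_circ_002493 of Qk spans exons 2 to 4 at chr17:10431758-10475846 on the minus strand, and CiCo_mm9_circ_000818 of Tnrc6c spans exons 2 to 5 at chr11:117562039-117584864 on the plus strand. The pair of Tnrc6c circRNAs that begin at exon 2 share their capitals, as do 2 of the Qk circRNAs.
Nova2 CiCo_mm9_circ_005826: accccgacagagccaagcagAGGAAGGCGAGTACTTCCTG
Rbfox1 CiCo_mm9_circ_002427: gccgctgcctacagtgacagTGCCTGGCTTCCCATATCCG
Srrm4 CiCo_mm9_circ_004811: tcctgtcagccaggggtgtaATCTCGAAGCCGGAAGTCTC
Celf2 CiCo_mm9_circ_003830: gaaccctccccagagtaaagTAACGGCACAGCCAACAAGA
Celf2 CiCo_mm9_circ_003829: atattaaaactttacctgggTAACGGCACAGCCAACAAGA
Celf2 CiCo_mm9_circ_003828: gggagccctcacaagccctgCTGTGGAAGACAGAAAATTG
Celf2 CiCo_mm9_circ_003826: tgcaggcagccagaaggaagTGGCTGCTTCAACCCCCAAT
Qk CiCo_mm9_circ_002493: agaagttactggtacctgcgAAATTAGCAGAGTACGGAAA
Qk CiCo_mm9_circ_002494: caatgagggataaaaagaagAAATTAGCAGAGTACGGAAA
Tnrc6c CiCo_mm9_circ_000817: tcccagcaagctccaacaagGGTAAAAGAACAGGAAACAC
Tnrc6c CiCo_mm9_circ_000818: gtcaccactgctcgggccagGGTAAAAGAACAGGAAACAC
Tnrc6c CiCo_mm9_circ_000819: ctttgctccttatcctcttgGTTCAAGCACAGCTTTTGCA
The members that fell in N include 2 circles of a single exon, exon 4 of Qk (chr17:10431758-10431901, minus strand) and exon 7 of Ptbp1 (chr10:79322526-79322700, plus strand), printed whole with the 20 bases at each end that meet at the junction in capitals.
Qk CiCo_mm9_circ_002492: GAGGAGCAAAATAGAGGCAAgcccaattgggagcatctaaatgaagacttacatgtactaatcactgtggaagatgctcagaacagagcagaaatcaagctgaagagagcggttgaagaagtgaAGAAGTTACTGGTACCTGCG
Ptbp1 CiCo_mm9_circ_000661: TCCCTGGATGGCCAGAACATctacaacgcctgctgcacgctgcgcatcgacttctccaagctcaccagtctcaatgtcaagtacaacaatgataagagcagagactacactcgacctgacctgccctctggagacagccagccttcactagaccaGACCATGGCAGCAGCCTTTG

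The libraries were unequal, which bears on every value that follows. Total counts ran from 2962787 (PP replicate 3) to 8015311 (DP replicate 3), but 27 entries, called high-count entries here, together took most of them, and 83572 (PP replicate 3) to 287983 (N replicate 2) counts remained on the other circRNAs. These entries were set apart as those in 1 short stretch of the genome and 1 further entry, not by a count threshold. The members held 1552 counts in PP replicate 3, 3172 in N replicate 1 and 7851 in N replicate 2, with a median count per member between 13 (N replicate 1) and 60 (DP replicate 1). PP replicate 3 and N replicate 1 stood apart from the others. Over the circRNAs outside the high-count entries, the rank correlation (Spearman's rho) with the other replicates was 0.713 and 0.703 for PP replicate 3 and 0.794 and 0.831 for N replicate 1, against 0.922 between PP replicates 1 and 2, 0.947 between N replicates 2 and 3, and 0.940 to 0.948 within DP. In N replicate 1 the difference from the other N libraries, as log2(CPM + 1), also followed the GC content of the exons, with a median of -0.69 in the class of lowest GC and 0.62 in the class of highest GC, and with a rho of 0.566 over 4305 circRNAs. Values are therefore given by library, and calls that were gained without both of them are given for the members named. The fit without both keeps PP replicates 1 and 2, N replicates 2 and 3 and all of DP. PP replicate 3 and N replicate 1 were left out because they stood apart in these same data. In that fit 14.0% of all circRNAs passed in DP relative to PP, against 1.86% with all libraries. Its calls and small p-values describe the remaining libraries and are not further support for a change. Of the 77 members, 73 from 31 genes had enough counts to be tested and 72 had a count in every library, while 38 reached 10 counts in every library. Counts were scaled to CPM with TMM-adjusted library sizes, where 3 counts are worth 0.339 CPM in DP replicate 1, the deepest library by this measure, and 1.39 CPM in PP replicate 3, the shallowest. The featureCounts values include every read on the features of a circRNA and are not limited to the backsplice junction, so that reads of a residual linear RNA and of a circRNA cannot be told apart.

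**Figure D1:**
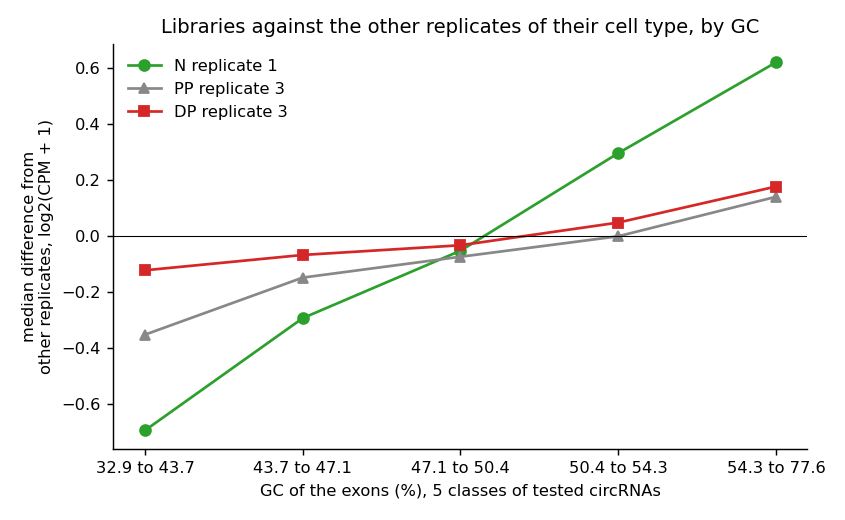
Median difference of a library from the other replicates of its cell type in log2(CPM + 1) (y axis) over tested circRNAs in 5 classes of exon GC content in percent (x axis), for N replicate 1, PP replicate 3 and DP replicate 3 (lines). N replicate 1 runs from -0.69 in the class of lowest GC to 0.62 in the class of highest GC, PP replicate 3 from -0.35 to 0.14 and DP replicate 3 from -0.12 to 0.18.

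The sorted populations were checked with markers. CircRNAs of PP markers (4 of 11 genes, Ptprz1 the most abundant) summed to 287 to 382 CPM in the PP libraries, 114 to 146 CPM in DP and 59.3 to 80.6 CPM in N. CircRNAs of neuronal markers (6 of 11 genes, Bcl11b the most abundant) summed to 7.90 to 19.5 CPM in PP, 59.3 to 84.3 CPM in DP and 329 to 409 CPM in N. The marker circRNAs thus followed the labels of PP and N. For DP only Mfng of 7 marker genes had circRNAs, while the defining genes Btg2 and Eomes had none. Those of Mfng were at 10.6, 10.6 and 33.0 CPM in PP, 37.8 to 45.7 CPM in DP and 1.98 to 13.3 CPM in N. The 33.0 CPM was that of PP replicate 3, which was also the highest PP library for the PP and the neuronal markers. Among markers of other cells, only Erbb4 of 7 interneuron genes had circRNAs. They were at 0, 0.161 and 2.32 CPM in PP, with PP replicate 3 the highest, 0 to 0.248 CPM in DP and 3.45 to 6.74 CPM in N. The 5 endothelial, 4 microglial, 4 oligodendrocyte lineage, 4 meningeal and 3 erythroid marker genes had no circRNA in the table. By the study's methods, the ganglionic eminences and the meninges were removed before the cells were sorted. The part of interneurons in the values of N was not tested. In bulk samples of sorted cells, fewer cells of a type and less RNA per cell cannot be told apart.

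CircRNAs of neuronal ELAV genes, of several splicing regulators and of Tnrc6c moved along the lineage. With all 9 libraries none of those of spliceosome and Rbm, translation and transport, or deadenylation genes passed the test, but some in each of these roles did without PP replicate 3 and N replicate 1, and the difference between roles was not tested. Between DP and PP, 5 of the 73 members tested passed an adjusted p of 0.05 in edgeR's quasi-likelihood test, all higher in DP (6.85%), against 1.86% of the 4406 circRNAs tested (1.48% higher, 0.386% lower). Between N and DP, 16 members passed (21.9%), 11 higher and 5 lower in N, against 18.8% of all (9.03% higher, 9.80% lower). Between N and PP, 19 passed (26.0%), 15 higher and 4 lower, against 28.1% of all (13.7% higher, 14.4% lower). The share of members that passed was thus close to that of all circRNAs between N and either progenitor. Over the 3 cell types together, 20 members of 10 genes passed (27.4%, against 25.0% of all). The median log2 FC over the members was -0.02 in DP relative to PP, -0.03 in N relative to DP and -0.05 in N relative to PP, beside -0.06, -0.02 and -0.09 over all circRNAs. The replicates of the compared groups did not overlap for 11 members in DP against PP (15.1%, against 19.3% of all), 29 in N against DP (39.7%, against 38.8%) and 26 in N against PP (35.6%, against 36.5%). Leaving out each library in turn gave 0 members (without PP replicate 2, where 0.829% of all passed) to 12 (without PP replicate 3, 3.90% of all) in DP relative to PP, and 8 (without DP replicate 2, 12.0% of all) to 23 (without PP replicate 3, 26.4% of all) in N relative to DP. In N relative to PP it gave 16 (without PP replicate 2, 23.4% of all) to 26 (without PP replicate 3, 34.9% of all). Without both PP replicate 3 and N replicate 1, 13 of 74 members tested passed in DP relative to PP (10 higher and 3 lower, against 14.0% of all, 9.08% higher and 4.90% lower). Likewise 25 passed in N relative to DP (17 higher and 8 lower, against 33.9% of all, 16.6% higher and 17.3% lower), 33 in N relative to PP (21 higher and 12 lower, against 42.2% of all, 21.6% higher and 20.6% lower), and 30 over the 3 cell types together (against 43.3% of all). Scaling to total counts, most of which are in the high-count entries, moved the median of all circRNAs in N relative to PP to -0.37 and left 0, 7 and 12 members in the 3 comparisons (0.00%, 9.59% and 16.4%), against 0.499%, 9.24% and 14.7% of all. The p-values measure the spread between these libraries.

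**Figure D2:**
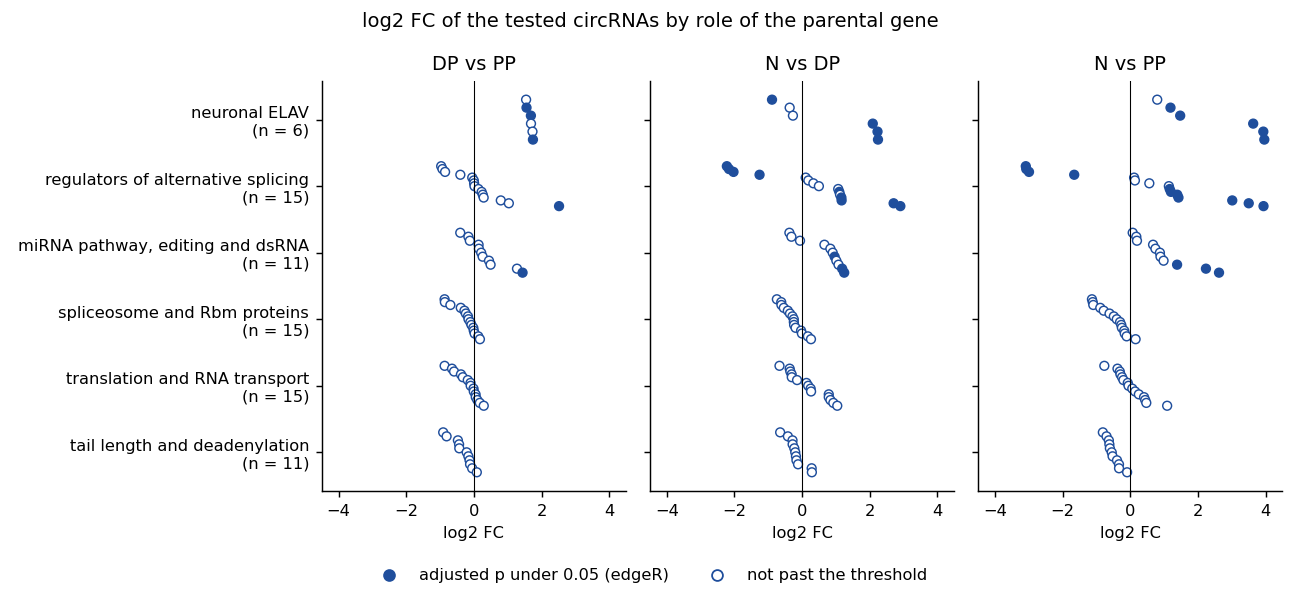
Log2 FC (x axis) of each tested member, in rows by the role of its parental gene, in panels for DP relative to PP, N relative to DP and N relative to PP; filled points have an adjusted p under 0.05 in edgeR's test and open points do not. Filled points lie among the neuronal ELAV, splicing regulator and Tnrc6c circRNAs, and with all libraries the other roles hold open points only.

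All 6 circRNAs of the 3 neuronal ELAV genes passed the test over the 3 cell types, as did 25.0% of all circRNAs, and they showed 2 patterns. Elavl4 and Elavl2 were highest on average in DP, and Elavl3 was higher on average at each step and highest in N. In DP relative to PP 3 of the 6 rose (1.48% of all circRNAs did), in N relative to DP 3 rose and 1 fell (9.03% and 9.80% of all), and in N relative to PP 5 rose (13.7% of all). DESeq2 called 5 of the 6 in DP relative to PP (83.3%, against 2.68% of all). Scaled to total counts in edgeR, 0, 2 and 3 of the 6 passed in the same order of comparisons, against 0.499%, 9.24% and 14.7% of all. With PP replicate 3 and N replicate 1 left out, all 6 rose in DP relative to PP and in N relative to PP (9.08% and 21.6% of all circRNAs rose in that fit).

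The Elavl4 circRNA was measured at 6.48, 5.80 and 5.11 CPM in PP, 19.1, 19.5 and 18.0 CPM in DP, and 7.08, 11.3 and 11.5 CPM in N. The 3 DP libraries were above all others, and the N libraries were above those of PP by a smaller margin. It was 3.22-fold higher in DP than in PP (log2 FC 1.69 ± 0.30 SE, edgeR adjusted p = 0.00838) and fell by 0.89 on the log2 scale from DP to N (SE 0.28, edgeR adjusted p = 0.0403). N relative to PP did not pass (log2 FC 0.80 ± 0.31 SE, edgeR adjusted p = 0.0680), although it did without N replicate 1 (log2 FC 0.97, edgeR adjusted p = 0.0129) and without PP replicate 3 and N replicate 1 together (0.91, edgeR adjusted p = 0.00240). The rise in DP was lost without PP replicate 2 (edgeR adjusted p = 0.0609), and the fall from DP to N passed only without PP replicate 3 or without N replicate 1 among the 9 fits that left out a library (edgeR adjusted p up to 0.125). Over its counted length of 2204 bases, 1475 of which match an intron, it had a mean of 5.23 RPKM ± 2.69 (SD over 9 libraries).

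Elavl2 showed the same order of means for both its circRNAs, which overlap in exon 3. CiCo_mm9_circ_004713 (exons 2 to 3) was at 2.85, 2.74 and 2.32 CPM in PP, 10.4, 8.13 and 8.56 CPM in DP, and 5.75, 8.48 and 7.71 CPM in N. The PP libraries were the lowest, and the DP and N libraries overlapped. It rose from PP to DP (log2 FC 1.75 ± 0.32 SE, edgeR adjusted p = 0.0102) and was higher in N than in PP (1.48 ± 0.33 SE, edgeR adjusted p = 0.00377), while N relative to DP was -0.27 (edgeR adjusted p = 0.585). CiCo_mm9_circ_004711 (exons 3 to 4) gave log2 FCs of 1.56 ± 0.33 SE (edgeR adjusted p = 0.0275) in DP relative to PP and 1.19 ± 0.34 SE (edgeR adjusted p = 0.0167) in N relative to PP. The rise from PP to DP was lost in 3 of the 9 fits that left out a library for CiCo_mm9_circ_004713 (without PP replicate 1 or 2 or DP replicate 1, edgeR adjusted p up to 0.0686) and in 6 for CiCo_mm9_circ_004711 (without any DP library, PP replicate 1 or 2, or N replicate 3, edgeR adjusted p up to 0.163). That of CiCo_mm9_circ_004711 in N relative to PP was lost in 4 (without PP replicate 1 or 2 or N replicate 2 or 3, edgeR adjusted p up to 0.0855).

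Elavl3 carried the highest counts of the family. CiCo_mm9_circ_006537 was at 4.67, 5.64 and 12.1 CPM in PP, 22.4, 17.9 and 31.1 CPM in DP, and 176, 69.0 and 92.2 CPM in N. The 3 groups did not overlap, and N replicate 1 was far above the other N libraries. It was 4.69-fold higher in N than in DP (log2 FC 2.23 ± 0.43 SE, edgeR adjusted p = 0.00187) and 15.6-fold higher in N than in PP (log2 FC 3.96 ± 0.48 SE, edgeR adjusted p = 3.67e-05), while DP relative to PP was 1.73 ± 0.45 SE (edgeR adjusted p = 0.0722). With PP replicate 3 and N replicate 1 left out, the log2 FCs were 1.75 in N relative to DP, 3.95 in N relative to PP and 2.20 in DP relative to PP, all of which passed (edgeR adjusted p = 2.63e-09, 4.28e-14 and 2.91e-07). The circRNAs CiCo_mm9_circ_006536 and CiCo_mm9_circ_006539, which overlap the first and can share its reads, rose alike in N relative to PP (log2 FC 3.93 and 3.63, edgeR adjusted p = 3.41e-05 and 8.36e-05). Without PP replicate 3 and N replicate 1 they too rose in DP relative to PP (2.09 and 2.14). In that comparison CiCo_mm9_circ_006536 also passed without PP replicate 3 alone (2.10, edgeR adjusted p = 0.0133) or N replicate 1 alone (1.72, edgeR adjusted p = 0.0199). With all libraries it passed in DESeq2 (1.65, DESeq2 adjusted p = 0.0309). The omissions of 1 library in DP relative to PP are not given here for the other Elavl3 circRNAs. The exons of the Elavl3 circRNAs have a GC content of 56.8 to 58.1%, in the class of 54.3 to 77.6% that was raised most in N replicate 1. The same class holds the circRNAs of Nova2 (55.3%), Srrm4 (65.2%) and Rbfox1 (61.8%), CiCo_mm9_circ_003826 of Celf2 (56.0%), and CiCo_mm9_circ_000818 and CiCo_mm9_circ_000819 of Tnrc6c (54.8% and 56.9%). At the other end, CiCo_mm9_circ_002493 and CiCo_mm9_circ_002494 of Qk (42.1% and 40.8%) lie in the class that was lowered most in that library. The part of GC content in these results was not tested.

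**Figure D3:**
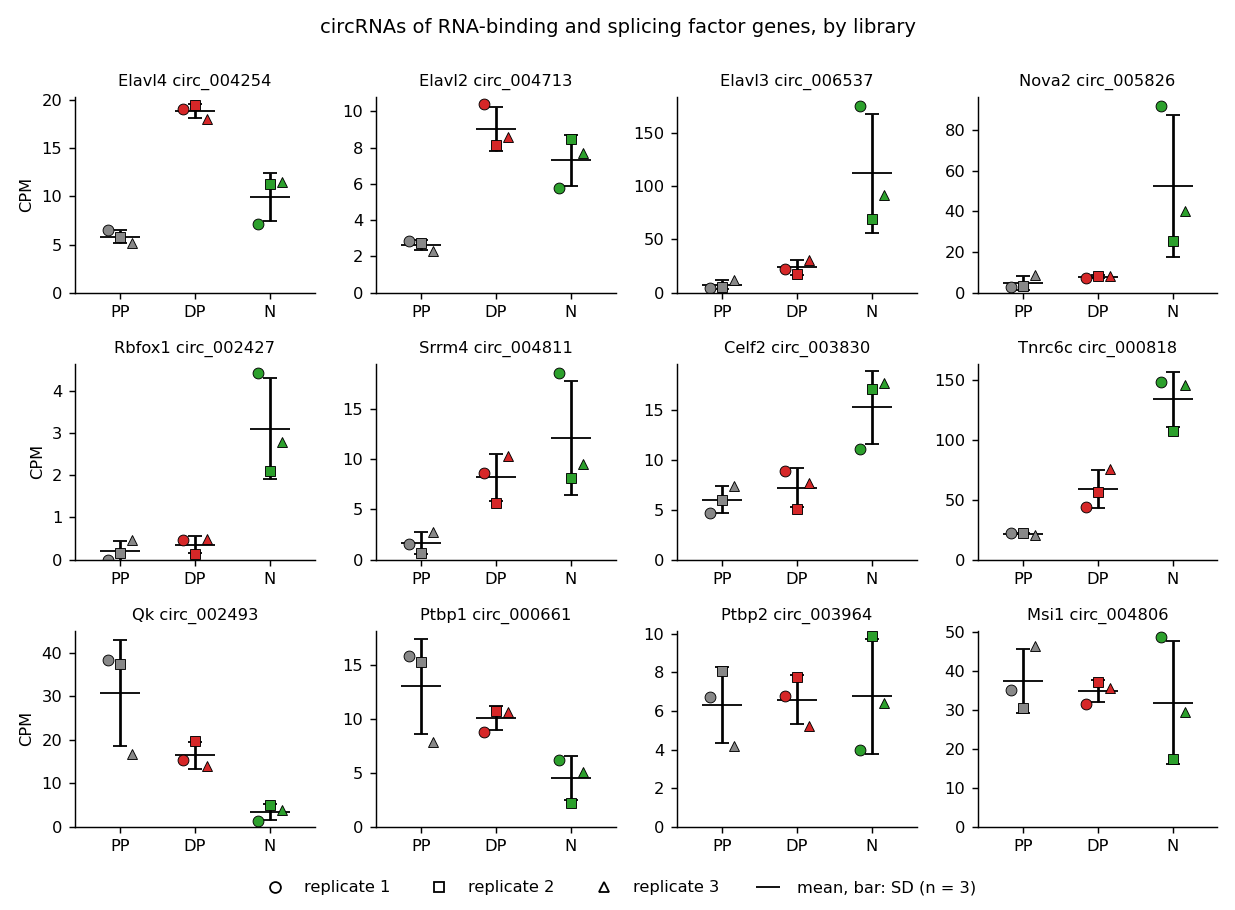
CPM (y axis, each panel from 0 with its own scale) of 12 circRNAs in the 3 PP, 3 DP and 3 N libraries (x axis; symbols mark the replicate number, lines the mean and bars the SD, n = 3). The DP libraries of Elavl4, at 18.0 to 19.5 CPM, lie above all others, whereas Elavl3 rises to 69.0 to 176 CPM in N and Qk (CiCo_mm9_circ_002493) falls from 16.7 to 38.4 CPM in PP to 1.33 to 4.88 CPM in N.

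Among the 17 listed regulators of alternative splicing, 8 genes had circRNAs, and 11 of their 15 circRNAs passed the test over the 3 cell types, as did 25.0% of all circRNAs. In N relative to PP, where 13.7% of all circRNAs rose and 14.4% fell, 7 rose (Nova2, Rbfox1, Srrm4 and the 4 of Celf2) and 4 fell (the 3 of Qk and that of Ptbp1). In N relative to DP, 5 rose and 4 fell (9.03% and 9.80% of all), and in DP relative to PP the Srrm4 circRNA alone passed with all libraries (1.86% of all). In the fit without PP replicate 3 and N replicate 1, 5 passed in DP relative to PP, those of Srrm4 and Nova2 higher and the 3 of Qk lower, beside 10 in N relative to DP and 11 in N relative to PP, against 14.0%, 33.9% and 42.2% of all circRNAs in the 3 comparisons.

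Nova2 encodes a neuronal regulator that binds clusters of short motifs in pre-mRNAs. Its circRNA was at 2.59, 3.39 and 8.82 CPM in PP, 7.13, 8.26 and 8.44 CPM in DP, and 92.0, 25.6 and 40.4 CPM in N. All N libraries were above all progenitor libraries, with N replicate 1 the highest. It was higher in N than in DP (log2 FC 2.71 ± 0.49 SE, edgeR adjusted p = 0.00125) and than in PP (3.50 ± 0.54 SE, edgeR adjusted p = 0.000221), and without N replicate 1 these were 2.04 and 2.89. DP relative to PP was 0.80 ± 0.52 SE (edgeR adjusted p = 0.629) with all libraries and 1.38 ± 0.30 SE (edgeR adjusted p = 0.00116) without PP replicate 3 and N replicate 1. Per length, Nova2 was at 15.8 RPKM ± 10.8 in PP, 25.4 RPKM ± 2.27 in DP and 168 RPKM ± 112 in N (SD, n = 3).

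Rbfox1, a regulator that binds the motif TGCATG around neuronal exons, had a circRNA with few counts, 0, 1 and 1 in PP, 4, 1 and 4 in DP, and 10, 18 and 17 in N. Each N library had more counts than every progenitor library. The ratio of summed counts, scaled to library size, was 16.2 for N over PP (exact 95% interval 4.23 to 138, which covers counting error only) and 7.37 for N over DP (3.56 to 17.2). Of the 73 tested members, this was the only one whose counts reached the minimum of the low-count filter in N libraries alone, so that it entered the test through the group where it was high, and it is counted above with that limit. In the fit with no such filter, over all 5281 circRNAs, N relative to PP and N relative to DP had edgeR adjusted p = 0.00113 and 0.00140.

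Srrm4, which promotes the inclusion of neuronal microexons, had a circRNA that rose in DP. It was at 1.56, 0.645 and 2.79 CPM in PP, 8.60, 5.67 and 10.3 CPM in DP, and 18.6, 8.13 and 9.52 CPM in N. The PP libraries were below all others, and DP and N overlapped. The PP values rest on few counts, since 3 counts are worth 0.778, 0.484 and 1.39 CPM in these libraries. Only 1 PP library reached the minimum of the low-count filter. The log2 FC was 2.52 ± 0.52 SE in DP relative to PP (edgeR adjusted p = 0.0235) and 3.02 ± 0.52 SE in N relative to PP (edgeR adjusted p = 0.000593). N relative to DP was 0.50 ± 0.40 SE (edgeR adjusted p = 0.469), and -0.05 when scaled to total counts. The rise in DP was lost without PP replicate 1 or 2 or DP replicate 1 or 3 (edgeR adjusted p up to 0.127).

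Celf2 encodes a regulator of splicing and mRNA stability and had 4 circRNAs at 3 places along the gene. CiCo_mm9_circ_003830, exon 2 alone, was at 4.67, 5.97 and 7.43 CPM in PP, 8.94, 5.05 and 7.69 CPM in DP, and 11.1, 17.1 and 17.7 CPM in N. The N libraries were the highest and those of PP and DP overlapped. Its log2 FC was 1.10 ± 0.32 SE in N relative to DP (edgeR adjusted p = 0.0249) and 1.39 ± 0.34 SE in N relative to PP (edgeR adjusted p = 0.00668). All 4 rose in N relative to PP, by log2 FCs of 1.17 to 1.43, and 3 of the 4 in N relative to DP, the exception being CiCo_mm9_circ_003826 (1.07, edgeR adjusted p = 0.0561, and 1.32, edgeR adjusted p = 2.69e-06, without PP replicate 3 and N replicate 1). The 3 rises over DP were each lost without DP replicate 2 or 3 or N replicate 2 or 3 (edgeR adjusted p up to 0.160), and over PP those of CiCo_mm9_circ_003828 (edgeR adjusted p up to 0.0582) and CiCo_mm9_circ_003826 (up to 0.119) were lost without PP replicate 2 or N replicate 2 or 3, the latter also without DP replicate 2. N replicate 1 was the lowest N library for CiCo_mm9_circ_003830, whereas it was the highest for Elavl3 and Nova2.

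Qk, which encodes the KH-domain protein quaking, showed the largest falls. CiCo_mm9_circ_002493 was at 38.4, 37.2 and 16.7 CPM in PP, 15.4, 19.7 and 13.9 CPM in DP, and 1.33, 4.88 and 3.77 CPM in N. The N libraries were below all others, and PP overlapped DP only through PP replicate 3. It fell by 2.16 on the log2 scale from DP to N (SE 0.42, edgeR adjusted p = 0.00211) and by 3.09 from PP to N (SE 0.43, edgeR adjusted p = 0.000111). DP relative to PP was -0.93 ± 0.38 SE (edgeR adjusted p = 0.332), and without PP replicate 3 it was -1.19 (edgeR adjusted p = 0.0385). In the fit without both PP replicate 3 and N replicate 1, all 3 Qk circRNAs were lower in DP than in PP (log2 FC -1.14 to -1.20). The fit without PP replicate 3 alone is not given here for CiCo_mm9_circ_002492 and CiCo_mm9_circ_002494. The single-exon circle CiCo_mm9_circ_002492 was 7.97-fold lower and CiCo_mm9_circ_002494 was 8.43-fold lower in N than in PP (edgeR adjusted p = 9.79e-05 and 0.000125). The exons of the other two lie within CiCo_mm9_circ_002493, so that reads can be shared.

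Ptbp1 and Ptbp2 encode related regulators, the first typical of progenitors and the second of neurons. The Ptbp1 circRNA was at 15.8, 15.3 and 7.89 CPM in PP, 8.82, 10.7 and 10.7 CPM in DP, and 6.20, 2.21 and 5.09 CPM in N. All N libraries were lower than all progenitor libraries. It fell by 1.66 on the log2 scale from PP to N (SE 0.40, edgeR adjusted p = 0.00624) and by 1.26 from DP to N (SE 0.39, edgeR adjusted p = 0.0375). The fall from DP was lost without any single DP library or without N replicate 2 or 3 (edgeR adjusted p up to 0.176). The Ptbp2 circRNA had means of 6.33, 6.59 and 6.75 CPM in PP, DP and N, and its log2 FC in N relative to PP was 0.11 ± 0.37 SE (edgeR adjusted p = 0.865). Whether the circRNAs of these genes differ from each other in their change was not tested. Khdrbs1, which encodes the splicing regulator Sam68, had 3 circRNAs, none of which passed with all libraries. CiCo_mm9_circ_004344 reached 192 CPM in N replicate 1 but 47.8 and 41.8 CPM in the other N libraries, beside 37.1 to 44.7 CPM in PP. Its log2 FC in N relative to PP was 1.14 (edgeR adjusted p = 0.0970), 0.095 without N replicate 1 (edgeR adjusted p = 0.814), and past the threshold without N replicate 2 (1.47, edgeR adjusted p = 0.0395) or N replicate 3 (edgeR adjusted p = 0.0395).

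Among the genes of the miRNA pathway, RNA editing and double-stranded RNA, 6 of 8 had circRNAs, and with all libraries the 3 circRNAs that passed the test over the 3 cell types, of 11 tested (27.3%, against 25.0% of all), were all of Tnrc6c. Tnrc6c encodes a GW182 scaffold protein that links Argonaute to the deadenylation machinery. CiCo_mm9_circ_000818, with 3050 exonic bases, was at 21.8, 22.1 and 20.9 CPM in PP, 44.1, 56.7 and 75.2 CPM in DP, and 148, 107 and 145 CPM in N. The 3 groups did not overlap. It rose from PP to DP (log2 FC 1.44 ± 0.31 SE, edgeR adjusted p = 0.0287), again from DP to N (1.18 ± 0.30 SE, edgeR adjusted p = 0.0131), and was 6.17-fold higher in N than in PP (edgeR adjusted p = 4.19e-05). CiCo_mm9_circ_000817, which begins at the same exon 2, had a log2 FC of 2.24 in N relative to PP (edgeR adjusted p = 0.000261), and CiCo_mm9_circ_000819 of exons 13 to 15 had 1.38 (edgeR adjusted p = 0.00751). In DP relative to PP these were 1.27 (edgeR adjusted p = 0.0846) and 0.14 (edgeR adjusted p = 0.947), the former 1.33 (edgeR adjusted p = 0.0490) without PP replicate 3 and 1.35 (edgeR adjusted p = 0.00209) without N replicate 1 as well. All 3 passed in N relative to PP whichever library was left out. The step of CiCo_mm9_circ_000818 from PP to DP was lost in 6 of 9 such fits (without any DP library, PP replicate 1 or 2, or N replicate 3, edgeR adjusted p up to 0.192) and its step from DP to N in 3 (without DP replicate 1 or 2 or N replicate 3, edgeR adjusted p up to 0.0966). In N relative to DP, CiCo_mm9_circ_000817 (log2 FC 0.96) was lost in 5 (without any DP library or N replicate 2 or 3, edgeR adjusted p up to 0.195) and CiCo_mm9_circ_000819 (1.25) in 2 (without DP replicate 1 or 2, edgeR adjusted p up to 0.0713).

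The related Tnrc6b had 5 circRNAs, none of which passed with all libraries. Their log2 FCs in N relative to PP were between 0.20 and 0.98. CiCo_mm9_circ_002149 passed in N relative to DP without PP replicate 3 (0.98, edgeR adjusted p = 0.0152). In the fit without PP replicate 3 and N replicate 1, 4 of the 5 were higher in N than in PP, with log2 FCs of 1.15 to 1.34 (21.6% of all circRNAs were higher), and 2 (CiCo_mm9_circ_002149 and CiCo_mm9_circ_002150) were higher than in DP (0.86 and 0.76, with 16.6% of all higher). The Adar circRNA, from the gene of an adenosine deaminase that edits double-stranded RNA, was at 4.64 to 5.34 CPM in DP and at 19.9, 7.20 and 7.22 CPM in N, where the high value was N replicate 1 (log2 FC in N relative to DP 1.08 ± 0.44 SE, edgeR adjusted p = 0.116). That log2 FC was 0.50 without N replicate 1 (edgeR adjusted p = 0.401), and it passed without PP replicate 3 (edgeR adjusted p = 0.0459). CiCo_mm9_circ_000107 of Dhx9, an RNA helicase that unwinds double-stranded RNA, was abundant at 54.9 RPKM ± 16.5 (SD, 9 libraries) and did not pass (log2 FC in N relative to PP 0.07, edgeR adjusted p = 0.919). Of the members with too few counts for a test, Adarb1 had 0, 0 and 0 counts in PP, 2, 1 and 2 in DP, and 3, 5 and 4 in N, where 0 counts allow up to 0.484 to 1.39 CPM in the PP libraries. Tnrc6a had 4, 2 and 3 counts in PP, 1, 2 and 2 in DP, and 0, 5 and 10 in N.

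Among genes of the spliceosome and Rbm proteins, 5 of 12 had circRNAs, and 0 of the 15 circRNAs tested passed in any comparison in edgeR (1.86%, 18.8% and 28.1% of all did in DP relative to PP, N relative to DP and N relative to PP) or DESeq2 (2.68%, 18.5% and 27.6%). At an unadjusted p under 0.05 there were 0, 0 and 1 of them, against 11.5%, 28.5% and 37.7% of all. With PP replicate 3 and N replicate 1 left out, 6 of 16 were lower in N than in PP (37.5%, against 20.6% of all lower) and 2 lower than in DP (12.5%, against 17.3%). The circRNA of Srpk2, a kinase of SR proteins, had means of 4.89, 4.47 and 5.65 CPM in PP, DP and N. CiCo_mm9_circ_005063 of Rbm33 was at 7.52, 7.26 and 49.2 CPM in PP, 10.1 to 12.2 CPM in DP, and 7.20 to 11.1 CPM in N. PP replicate 3 alone was high, and without it the log2 FC in N relative to PP turned from -1.11 (edgeR adjusted p = 0.194) to 0.34. The Rbm33 circRNAs CiCo_mm9_circ_005064 and CiCo_mm9_circ_005061 were likewise highest in PP replicate 3, at 49.7 and 35.3 CPM. Rbm39, which encodes a coactivator that associates with the spliceosome, had 3 circRNAs with log2 FCs of -0.49 to -0.79 in N relative to PP (edgeR adjusted p = 0.239 to 0.391). Without PP replicate 3 and N replicate 1 all 3 were lower in N than in PP (log2 FC -0.67 to -0.77, edgeR adjusted p = 0.00734 to 0.0102). Rbm26 had 2 circRNAs and Rbm27 had 4, with means of at most 11.4 CPM in any cell type. Without those 2 libraries both of Rbm26 were lower in N than in PP (log2 FC -0.57 and -0.71, edgeR adjusted p = 0.0401 and 0.0129), as was CiCo_mm9_circ_002981 of Rbm27 (-1.24, edgeR adjusted p = 0.0355). With all libraries that Rbm27 circRNA reached the minimum of the low-count filter in 2 PP, 2 DP and 0 N libraries. It thus entered the test through the groups where it was high, and it is counted above with that limit. In N relative to DP, CiCo_mm9_circ_001753 of Rbm26 (-0.56, edgeR adjusted p = 0.0322) and CiCo_mm9_circ_003520 of Rbm39 (-0.58, edgeR adjusted p = 0.0231) were lower in the fit without those 2 libraries.

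Among genes of translation and RNA transport, 8 of 13 had circRNAs and 0 of the 15 tested passed in edgeR or DESeq2, beside the shares of all given for the spliceosome genes. In the same order of comparisons 0, 3 and 1 of the 15 had an unadjusted p under 0.05, against 11.5%, 28.5% and 37.7% of all. In the fit without PP replicate 3 and N replicate 1, 4 of 15 passed in N relative to DP (26.7%, against 33.9% of all) and 1 in N relative to PP (6.67%, against 42.2%). Msi1, which encodes a translational regulator of neural progenitors, had a circRNA at 35.0, 30.5 and 46.4 CPM in PP, 31.6, 37.2 and 35.5 CPM in DP, and 48.7, 17.4 and 29.4 CPM in N. The 3 groups overlapped (log2 FC in N relative to PP -0.24 ± 0.36 SE, edgeR adjusted p = 0.670). N relative to DP was -0.15 (edgeR adjusted p = 0.845), and -0.59 (edgeR adjusted p = 0.0153) without PP replicate 3 and N replicate 1. Msi2 had at most 7 counts in any library and was not tested. Pum2, a repressor that binds mRNAs at Pumilio elements, had 3 circRNAs, of which CiCo_mm9_circ_001501 had means of 20.1, 17.6 and 19.2 CPM in PP, DP and N. Staufen proteins carry mRNAs along the cytoskeleton, and Stau2 had 5 circRNAs. CiCo_mm9_circ_000137 of Stau2 had means of 1.53, 1.72 and 3.41 CPM in PP, DP and N (log2 FC in N relative to PP 1.09 ± 0.41 SE, edgeR adjusted p = 0.0641), and passed without N replicate 1 (1.20, edgeR adjusted p = 0.0430). With both that library and PP replicate 3 left out, CiCo_mm9_circ_000137, CiCo_mm9_circ_000140 and CiCo_mm9_circ_000142 of Stau2 were higher in N than in DP (log2 FC 1.15, 0.75 and 0.86, edgeR adjusted p = 0.00567, 0.0366 and 0.0417), and the first also than in PP (1.04, edgeR adjusted p = 0.0358). Fxr1, Larp1, Larp4b and Stau1 circRNAs had log2 FCs between -0.77 and 0.47 in N relative to PP.

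Among genes that set tail length and deadenylation, all 4 had circRNAs and 0 of the 11 tested passed in edgeR or DESeq2, beside the same shares of all. An unadjusted p under 0.05 was found for 0, 0 and 1 of them (11.5%, 28.5% and 37.7% of all). CiCo_mm9_circ_006389 of Cnot1, the scaffold of the CCR4-NOT deadenylase complex, was at 28.0, 27.9 and 13.5 CPM in PP, 24.7, 21.3 and 16.8 CPM in DP, and 8.85, 16.7 and 13.6 CPM in N. The N libraries overlapped PP through PP replicate 3, and the log2 FC in N relative to PP went from -0.81 (edgeR adjusted p = 0.108) to -1.04 without that library (edgeR adjusted p = 0.0121). Without N replicate 1 as well, CiCo_mm9_circ_006389 (-0.86, edgeR adjusted p = 0.00106) and CiCo_mm9_circ_006391 (-0.78, edgeR adjusted p = 0.0487) of Cnot1 were lower in N than in PP, 2 of the 11 in this role (18.2%, against 20.6% of all lower). The 3 circRNAs of Cnot2, another subunit, were at 2.59 to 4.84 CPM in PP replicates 1 and 2 and at 9.75 to 11.1 CPM in PP replicate 3. Zc3h14, which encodes a poly(A)-binding zinc finger protein, had 2 circRNAs whose log2 FCs in N relative to PP were both -0.33. The m6A readers Ythdc1 and Ythdc2 had no circRNA in the table.

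Levels between genes were compared per kilobase of counted length (RPKM). The median member was at 12.0 RPKM, above the median of 6.76 RPKM over all circRNAs, and 62 of the 77 members lay above that median. By the most abundant circRNA of each gene, the order differed between cell types. In PP it began with Qk (106 RPKM ± 39.0, SD, n = 3), Ptbp1 (73.9 ± 25.2) and Dhx9 (48.0 ± 18.6). In DP it began with Dhx9 (66.5 RPKM ± 2.95), Ptbp1 (57.2 ± 6.14) and Qk (55.2 ± 12.2). In N it began with Nova2 (168 RPKM ± 112), Elavl3 (108 ± 53.9) and Celf2 (77.2 ± 18.6). Without N replicate 1 these means were 105 RPKM for Nova2, 77.5 for Elavl3 and 87.9 for Celf2, which then came before Elavl3, and without PP replicate 3 Rbm39 (58.3 RPKM) came before Dhx9 (57.7 RPKM) in PP, after Qk and Ptbp1. With all libraries, neighbours within each of these orders differed by less than the larger of their SDs, apart from Ptbp1 and Dhx9 in PP and in DP. Pum2 and Msi1 varied less over the 9 libraries, with means of 37.1 RPKM ± 6.87 and 36.0 RPKM ± 9.68. The lowest means over the 9 libraries were those of Tnrc6a (4.19 RPKM), Adarb1 (1.95) and Msi2 (1.91).

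**Figure D4:**
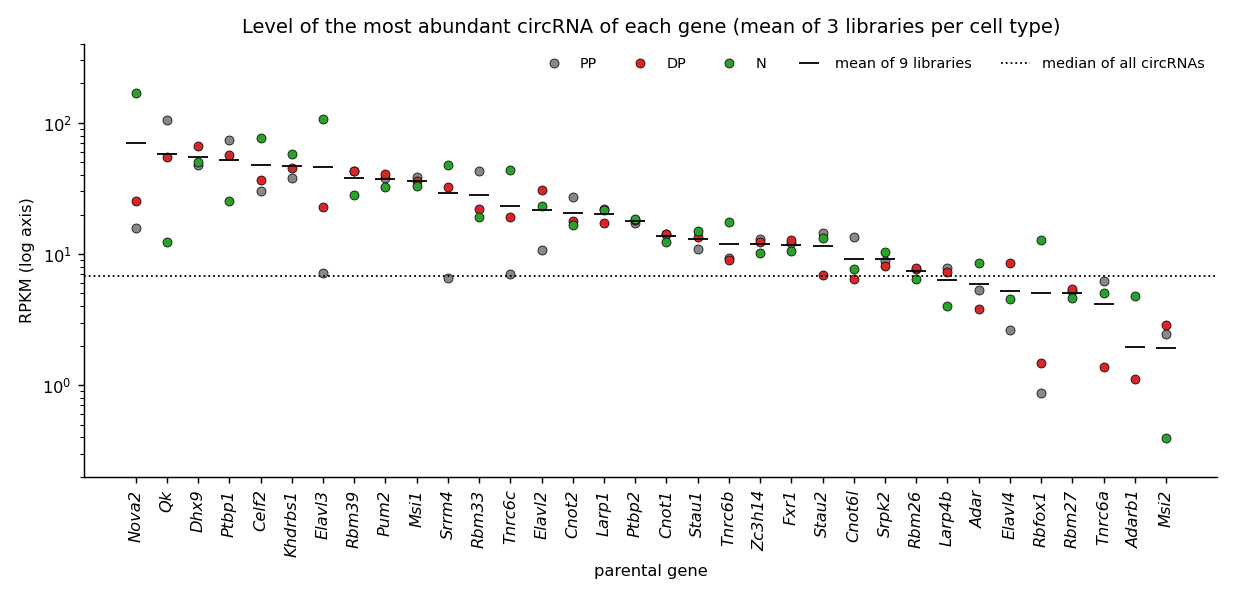
Mean RPKM (y axis, log scale) of the most abundant circRNA of each of the 34 genes (x axis) in PP, DP and N (points, 3 libraries each), ordered by the mean over the 9 libraries (dashes), with a dotted line at 6.76 RPKM, the median of all circRNAs; Adarb1 in PP, at 0, is not drawn. The N points of Nova2 and Elavl3 lie far above their PP points and the N point of Qk lies far below.

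For no member gene did its circRNAs differ from each other past the threshold. A test of whether circRNAs of the same gene differ from each other in log2 FC between N and PP (edgeR's diffSpliceDGE) passed for 0 of the 20 member genes with 2 or more tested circRNAs and for 0.397% of 1008 genes overall. Tnrc6c, with log2 FCs of 1.38 to 2.62, was the only member gene at an unadjusted p under 0.05 (adjusted p = 0.557 in edgeR's diffSpliceDGE), 1 of 20, against 3.27% of all genes tested. The 77 members fell into 50 loci, and 44 of them overlapped another member, so that circRNAs of a gene can share reads and are not independent.

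The structure of the members was set beside that of all circRNAs. Both held a median of 3 exons, and 76 of the 77 had both ends at exon ends. Of these 76, 30 began at exon 2 of their transcript (39.5%, against 27.5% of all circRNAs) and 9 were a single exon (11.8%, against 9.26%). All were flanked by AG and GT in the genome (100%, against 99.9% of all). The letters ACTAAC or ACTAAT, the core of the motif that the QKI protein binds, lay within 300 bases of either end on the transcribed strand for 18 members (23.4%, against 18.1% of all). TGCATG, the motif of Rbfox proteins, did so for 19 (24.7%, against 22.1%). A match describes the sequence and does not show a bound site.

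For 13 of the 76 members the counted length was longer than the exons between its ends, by a length that 12 of them matched as the sum of whole introns in a single way. For Elavl4, 1475 of the 2204 counted bases (66.9%) matched 1 of the 3 introns it spans. For CiCo_mm9_circ_003519 of Rbm39 the share was 94.5%, for Msi1 78.9% and for CiCo_mm9_circ_004344 of Khdrbs1 78.0%, while the Elavl3 circRNAs had 30.7 to 40.7%. Reads on these introns would enter the counts of those circRNAs, and their share of the reads was not analysed here. In the circRNAs that the study cloned or checked with divergent primers, no intron was detected. Its authors propose that reads on introns may come from lariats, which was not tested here for the members. The RPKM of such a member is over its whole counted length, and that of its exons alone was not analysed here. By contrast, the counted length of the circRNAs of Nova2, Qk, Ptbp1, Srrm4, Rbfox1, Celf2, Elavl2 and Tnrc6c matched their exons alone.

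**Figure D5:**
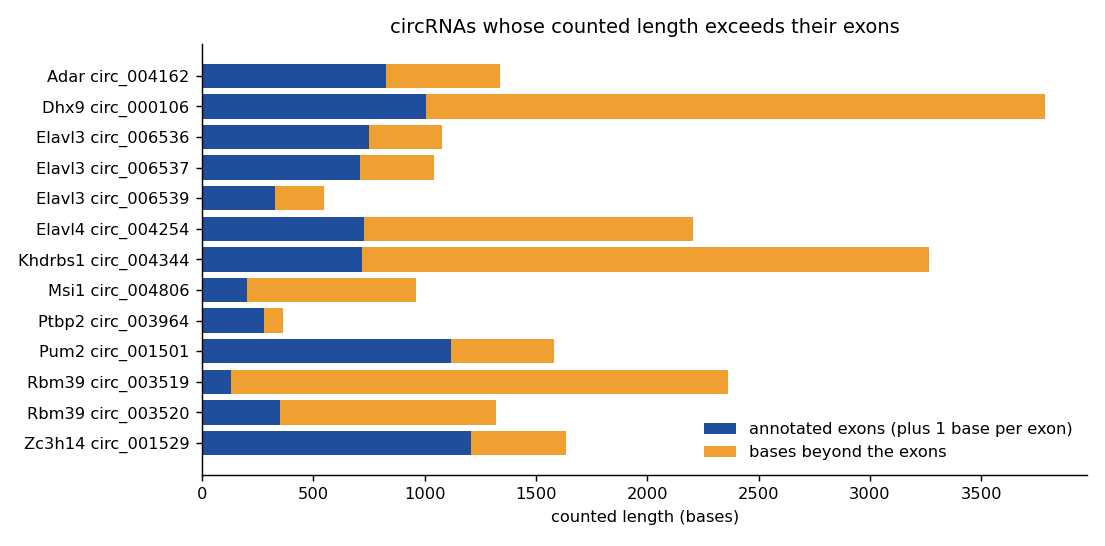
Counted length in bases (x axis) of the 13 members for which it exceeds the annotated exons (bars), split into the exons with 1 added base per exon (blue) and the bases beyond them (orange). They include Elavl4, with 2204 counted and 725 exonic bases, and CiCo_mm9_circ_003519 of Rbm39, with 2362 counted and 127 exonic bases.

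Other genes of RNA-binding proteins were taken as a comparison. Of 281 further genes, 118 had 222 circRNAs, 208 of which were tested. In N relative to PP, 19 of them passed (9.13%), 9 higher and 10 lower, beside 26.0% of the members and 28.1% of all circRNAs, and in N relative to DP 2 passed (0.962%, beside 21.9% of the members and 18.8% of all). In DP relative to PP 0 passed in edgeR (1.86% of all did) and 1 in DESeq2 (0.481%, against 2.68% of all), with 10 at an unadjusted p under 0.05 (4.81%, against 11.5% of all). Without PP replicate 3 and N replicate 1 the shares were 8.88%, 18.7% and 26.2% of 214 in DP relative to PP, N relative to DP and N relative to PP, beside 14.0%, 33.9% and 42.2% of all circRNAs. The listed genes were proposed with earlier results of these data known, and the shares are set side by side as a description.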

How the data were processed

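Strand-specific libraries of RNase R-treated total RNA from PP, DP and N of the E14.5 lateral cortex (3 each) were sequenced. The authors aligned reads with gsnap to mm9 with Ensembl genes, predicted circRNAs with find_circ, and deposited raw whole-number counts per circRNA from featureCounts (Subread 1.6.0 in the submitters' processing notes), summed over expressed features and not normalized. How reads on overlapping circRNAs were assigned is not given in the sources used here. The deposited counts were tested with edgeR 4.0.16 (filterByExpr, TMM, glmQLFit and glmQLFTest over all 9 libraries, Benjamini-Hochberg over the 4406 circRNAs tested, threshold 0.05) in R 4.3.3. SEs were derived from the log2 FC and F statistic, and all tests were two-sided. The steps were also run on simulated counts with the same dispersion for all circRNAs. These held no outlying library, GC effect or shared reads, so they do not cover those features of the data. CPM used TMM-adjusted library sizes, and RPKM is CPM per kilobase of counted length. Genes, exons and junctions were read from GENCODE vM1 and its mm9 genome.

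Named circRNAs were the Elavl4 anchor, the most abundant of each gene by RPKM, and per comparison and direction the 5 called members with the largest log2 FC whose replicates did not overlap. Further circRNAs of the same genes, and those named for a high value in PP replicate 3 or N replicate 1, were chosen after their values were seen. The members, lists and alternatives were chosen with earlier results of these data known. Alternatives were another tool (DESeq2 1.42.0), other scalings (RLE, total counts, or TMM without the high-count entries), other filters (none, or a minimum of 10 counts throughout), fits of only 2 cell types, the replicate number as a block, the omission of single libraries, and that of PP replicate 3 with N replicate 1. For the further RNA-binding genes, these omissions were added after seeing the data. PP replicate 3 and N replicate 1 were picked for omission because they stood apart in these data. Total counts were 2962787 to 8015311 per library, and the biological coefficient of variation was 0.296. Intervals and floors cover counting error only.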

Additional observations from a re-analysis of the deposited data

How the results depend on the processing

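Of the 40 calls of single members, 19 passed in every alternative that could be run and 24 in every fit that left out 1 library, and 0 changed direction. Leaving out single libraries gave 0 to 12 members called in DP relative to PP (5 with all libraries), 8 to 23 in N relative to DP (16), 16 to 26 in N relative to PP (19), 15 (without N replicate 3, 16.9% of all) to 25 (without PP replicate 3, 32.7% of all) over the 3 cell types (20) and 0 genes in the within-gene test. Without PP replicate 3 and N replicate 1 together, 13, 25 and 33 members were called in DP relative to PP, N relative to DP and N relative to PP, against 14.0%, 33.9% and 42.2% of all. Scaled to total counts, 0, 7 and 12 members were called, and 11 over the 3 cell types, against 0.499%, 9.24%, 14.7% and 12.2% of all circRNAs. With at least 10 counts in each library, which leaves fewer members to test, 2, 5 and 8 were called, and 9 over the 3 cell types, against 0.951%, 10.6%, 22.3% and 17.2% of all. A further setting kept only the circRNA of each gene with the highest mean CPM, which is not scaled to length as RPKM is. There 4, 8 and 9 of 31 were called in the 3 comparisons and 10 over the 3 cell types (12.9%, 25.8%, 29.0% and 32.3%, against 2.13%, 19.8%, 28.9% and 26.4% of 2297 genes taken in the same way).

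Same-numbered libraries of different cell types had correlations of their deviations between -0.224 and 0.268, and differently numbered ones between -0.306 and 0.295. The numbers were therefore not taken to pair the samples. Whether libraries shared a sort or a litter cannot be told from these values. With the replicate number as a block, 3 members were called in DP relative to PP (1.09% of all), and 7 calls of single members were lost, with edgeR adjusted p of 0.0546 to 0.0844. They were those of Elavl4, Ptbp1, CiCo_mm9_circ_003830 of Celf2 and CiCo_mm9_circ_000817 of Tnrc6c in N relative to DP, CiCo_mm9_circ_004711 of Elavl2 and CiCo_mm9_circ_000818 of Tnrc6c in DP relative to PP, and CiCo_mm9_circ_003826 of Celf2 in N relative to PP.

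The values that changed direction had not passed the test. For Ptbp2 CiCo_mm9_circ_003964 the log2 FC in N relative to PP was -0.090 with total counts and ran from -0.27 (without N replicate 2) to 0.33 over the fits without 1 library. For Msi1 it ran from -0.66 to 0.071 (without N replicate 2), and for Rbm33 CiCo_mm9_circ_005063 from -1.57 to 0.34 (without PP replicate 3), with 0.24 without PP replicate 3 and N replicate 1 together. For Srrm4 the log2 FC in N relative to DP was -0.048 with total counts. The cause of these changes was not tested beyond the libraries named. Counts limit the precision most in PP replicate 3 and N replicate 1, where the median member had 15 and 13 counts.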

Other observations

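Among the 281 further genes of RNA-binding proteins, the circRNAs that passed between N and PP were of genes in several steps of RNA metabolism. Higher in N were circRNAs of Zfr2 (log2 FC 2.54 ± 0.53 SE), Snrnp70, a component of the U1 snRNP (2.46 ± 0.58 SE), Cyfip2 (2.03 ± 0.38 SE), Fxr2, a relative of the fragile X protein (1.89 ± 0.38 SE), and Zc3h4 (1.58 ± 0.41 SE), with edgeR adjusted p between 0.00102 and 0.00923. The 2 circRNAs each of Khdrbs3, a relative of Khdrbs1, and of Rc3h2, a regulator of mRNA decay, were also higher in N (log2 FC 0.87 to 1.05, edgeR adjusted p = 0.0344 to 0.0363). Lower in N were 3 circRNAs of Lsm14a, a P-body protein (log2 FC -1.05 to -1.71), and circRNAs of the splicing factors Sf3b3 (-1.38), Snrnp200 (-0.91) and Sf1 (-0.77), of Zfr (-1.33), Rsrc1 (-1.84), Ssb (-1.26) and Pcbp2 (-0.93). Zfr and Zfr2 encode related zinc finger proteins, and their circRNAs moved in opposite directions between PP and N. Without N replicate 1, 17 of the 19 circRNAs that passed between N and PP still did, the exceptions being Pcbp2 and Ssb (edgeR adjusted p = 0.0581 and 0.0614). In that library the Snrnp70 circRNA was at 62.4 CPM, beside 13.9 and 13.3 CPM in the other N libraries, and its log2 FC without it was 1.41 ± 0.35 SE (edgeR adjusted p = 0.00877). N replicate 1 was also the highest N library for the circRNAs of Zfr2 (23.0 CPM, beside 8.13 and 10.5), Zc3h4 (41.2, beside 12.1 and 24.9), Cyfip2 (14.6, beside 7.09 and 8.37) and Fxr2 (18.1, beside 8.48 and 9.68), and without it their log2 FCs were 2.06, 1.13, 1.72 and 1.55 (edgeR adjusted p = 0.00116 to 0.0223). Without PP replicate 3 as well, all 19 passed. Leaving out these libraries for these circRNAs was chosen after seeing the data.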
